A study of Mus musculus with 6 samples.

Results

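The transforming growth factor beta (TGF-beta) system was followed through 10 genes in single-cell RNA sequencing libraries of the non-cardiomyocyte cells of the mouse heart. The genes were the ligands Tgfb1, Tgfb2 and Tgfb3, the receptors Tgfbr1, Tgfbr2 and Tgfbr3, the latent TGF-beta binding proteins Ltbp1, Ltbp2 and Ltbp4, and the inhibitory Smad gene Smad7. They were chosen by symbol, and all 10 were found among the 32285 genes of the count tables. TGF-beta is secreted in a latent complex in which its propeptide keeps it inactive, and most latent binding proteins tether that complex to the matrix until integrins or proteases release the ligand. The free ligand is bound by the type II receptor, which recruits and activates the type I receptor, and receptor-activated Smad proteins then enter the nucleus. In the injured heart the pathway is known for driving fibroblasts to become matrix-producing myofibroblasts and for its effects on leukocytes.

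Wild-type (WT) mice of the strain C57BL/6JRj were compared with mice lacking Trpm4 (KO; B6.Cg-Trpm4tm1.2-PG), a calcium-activated cation channel. All mice were male and 8 to 12 weeks old, and all were operated on. The hearts were taken 24 h after a sham operation, or 24 h or 72 h after the left anterior descending artery of the heart had been ligated, which causes a myocardial infarction. Ventricles were digested with thermolysin and papain, a 40 µm mesh held back the cardiomyocytes, and live cells were sorted before droplet sequencing of transcript 3' ends. The 6 groups of genotype and condition have 1 library each, made from the pooled cells of 4 mice. There was therefore no replicate check and no test was made, and all intervals are exact 95% intervals that cover counting error only.

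The deposited libraries held 3625 to 7286 cells and between 20995280 and 45649061 unique molecular identifiers (UMIs, 1 per captured transcript molecule). The KO library at 72 h stood apart in depth: its kept cells had a median of 1351 UMIs, against 3075 to 8008 in the others, and 53.9% of them had fewer than 1500 UMIs, against 6.06% to 10.9%. Library pairs shared 3 to 14 cell barcodes. Trpm4 itself was present in all 6 libraries at 8.38, 5.48 and 4.24 counts per 1000000 UMIs (CPM) in WT sham, 24 h and 72 h, and at 5.81, 3.40 and 2.56 CPM in KO. The KO over WT ratio was 0.693 (0.569 to 0.842), 0.619 (0.478 to 0.803) and 0.605 (0.436 to 0.827), so Trpm4 was lower in KO at each condition without being absent. Where in Trpm4 the captured 3' ends lie relative to the deleted part is not given in the sources used here.

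Cell classes were rebuilt by clustering and named from marker genes, and 4 classes had at least 100 cells in every library. These were fibroblasts (147 to 1260 cells per library), endothelial cells (236 to 2972), monocyte/macrophage cells (678 to 2857) and neutrophils (466 to 3394). A level here is the share of a gene in the UMIs of a class in a library, in CPM. A gene and class were called measured in a comparison when the pair of libraries held at least 50 UMIs of the gene. A level summed over a class mixes the makeup of that class with the amount of RNA per cell, and these cannot be told apart from a sum alone. The levels within clusters are given beside the main results for that reason. The clustering used all genes, so differences between classes and clusters are descriptions.

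The sequences just before 3 of the genes are shown because these genes had some of the largest ratios over time in fibroblasts, Ltbp2 toward higher and Ltbp4 and Tgfbr2 toward lower levels. They are RefSeq promoter windows of GRCm38.p6, printed 5' to 3' on the strand of the gene and without any base inside the annotated gene. The motif searched was CAGAC on either strand (read as GTCTG on the other), the short motif known to be bound by Smad proteins, which is in capitals. Of the 32851 promoter windows of 250 bases, 42.2% held at least 1 match.
Ltbp2 (chr12:84876533-84876741, minus strand): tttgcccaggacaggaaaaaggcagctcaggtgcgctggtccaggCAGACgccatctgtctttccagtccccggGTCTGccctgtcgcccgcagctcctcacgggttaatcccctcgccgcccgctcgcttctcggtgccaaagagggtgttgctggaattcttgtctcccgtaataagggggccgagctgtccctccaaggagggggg
Ltbp4 (chr7:27337693-27337862, minus strand): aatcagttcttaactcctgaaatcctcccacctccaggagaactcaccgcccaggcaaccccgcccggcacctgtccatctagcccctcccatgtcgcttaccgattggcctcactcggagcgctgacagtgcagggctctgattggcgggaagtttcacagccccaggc
Tgfbr2 (chr9:116175364-116175613, minus strand): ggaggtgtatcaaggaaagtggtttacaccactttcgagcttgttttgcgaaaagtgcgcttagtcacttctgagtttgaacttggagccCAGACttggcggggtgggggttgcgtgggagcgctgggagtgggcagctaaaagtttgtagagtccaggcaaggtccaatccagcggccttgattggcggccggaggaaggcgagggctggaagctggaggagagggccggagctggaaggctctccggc
Ltbp2 had 2 matches, 205 and 176 bases before the start of the RefSeq transcript, Tgfbr2 had 1 match 160 bases before it, and the Ltbp4 window had 0. Promoter windows were matched for 7 of the 10 genes. Tgfb2 had 2 matches, 221 and 204 bases before its start, and Tgfb1 had 0. A match is a letter pattern and no measure of binding.

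Each gene had its own distribution over the cell classes. Tgfb1 (36817 UMIs over all kept cells; chr7:25687002-25705077) was mostly a leukocyte and platelet transcript. Its mean over the libraries with at least 50 cells was 646 ± 324 CPM (SD, n = 4 libraries) in platelets and 269 ± 47.2 CPM (n = 6) in monocyte/macrophage cells. Neutrophils followed with 167 ± 42.5 CPM, B cells with 157 ± 14.3 CPM (n = 4), endocardial cells with 144 ± 18.8 CPM (n = 3) and endothelial cells with 135 ± 18.4 CPM (n = 6), and among these 4 classes, all with at least 3 libraries, each differed from the next in order by less than the SD of either. Fibroblasts had 82.4 ± 40.2 CPM and smooth muscle cells 40.1 ± 15.3 CPM. These SDs are over libraries of different conditions and genotypes. Lymphatic endothelial cells, with at least 50 cells only in KO 72 h, had 201 to 403 CPM of Tgfb1 over the libraries. Monocyte/macrophage cells alone held 45.6% to 75.2% of the Tgfb1 UMIs of a library.

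The other ligands had their highest means in mesenchymal classes, among classes with at least 3 libraries of at least 50 cells. Endothelial cells still held 24.2% of the Tgfb2 UMIs of WT sham and 15.1% of those of KO sham. In the ligation libraries that share was 1.95% to 6.15%. Tgfb2 (2370 UMIs; chr1:186622792-186705989) was at 74.5 ± 17.5 CPM in fibroblasts (n = 6) and 64.8 ± 31.7 CPM in smooth muscle cells (n = 4), which did not differ beyond their spread, and at 9.0 CPM in endothelial cells. Tgfb3 (1505 UMIs; chr12:86056745-86079041) was highest in smooth muscle cells at 112 ± 21.6 CPM (n = 4), with pericytes at 41.0 ± 19.2 CPM and fibroblasts at 36.6 ± 12.0 CPM. In the smooth muscle libraries with at least 50 cells, Tgfb3 was 95.4 CPM in WT sham, 139 CPM in WT 24 h, 120 CPM in KO sham and 93.9 CPM in KO 24 h.

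The type I receptor gene Tgfbr1 (9231 UMIs; chr4:47353222-47414931) was led by neutrophils at 142 ± 48.1 CPM (n = 6), with fibroblasts at 49.7 ± 11.9 CPM and monocyte/macrophage cells at 46.9 ± 16.9 CPM. Tgfbr2, the type II receptor gene (13437 UMIs, chr9:116084293-116175360), had its highest means in endocardial cells at 202 ± 14.1 CPM (n = 3) and fibroblasts at 159 ± 82.6 CPM (n = 6). That order holds among classes with at least 3 libraries of at least 50 cells, and depends on the libraries averaged. The endocardial mean is over WT sham, KO sham and KO 72 h. In these fibroblasts had 233, 247 and 66.6 CPM against 197, 191 and 218 CPM in endocardial cells, so fibroblasts were higher in both sham libraries. Lymphatic endothelial cells, fewer than that outside KO 72 h, had 265, 161 and 318 CPM in WT and 426, 169 and 185 CPM in KO. They were above endocardial cells in both sham libraries and WT 72 h, and below them in both 24 h libraries and KO 72 h. Tgfbr3, which encodes the co-receptor betaglycan (4528 UMIs; chr5:107106570-107289629), was highest in fibroblasts at 110 ± 67.1 CPM. For both Tgfbr2 and Tgfbr3 the fibroblast SD was large beside the mean, and the values by condition are given below.

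Among the latent binders, Ltbp2 (987 UMIs; chr12:84783212-84876532) was nearly a fibroblast gene, with 92.7% to 100% of its UMIs in a library in that class and 0 UMIs in the endothelial class of any library. Ltbp2 is a microfibril protein that, unlike Ltbp1 and Ltbp4, is known not to carry latent TGF-beta. Ltbp4 (21586 UMIs, chr7:27305136-27337692) was spread over endocardial cells (554 ± 254 CPM, n = 3), fibroblasts (540 ± 335 CPM, n = 6), pericytes and endothelial cells (214 ± 51.5 CPM), and was under 5 CPM on average in neutrophils and monocyte/macrophage cells. The endocardial mean is again over WT sham, KO sham and KO 72 h. In these fibroblasts had 761, 1014 and 184 CPM of Ltbp4 against 612, 774 and 276 CPM in endocardial cells. The small lymphatic endothelial class had 224 to 694 CPM over the libraries. Ltbp1 (2323 UMIs; chr17:75005568-75392512) was at 73.4 ± 22.2 CPM in smooth muscle cells, 66.8 CPM in endocardial cells and 53.7 ± 23.0 CPM in fibroblasts. Its platelet mean of 106 ± 46.4 CPM (n = 4) rests on 2 to 17 UMIs per library. Smad7 (9908 UMIs) was at 193 CPM in endocardial cells, 127 ± 47.7 CPM in endothelial cells and 15.6 ± 3.9 CPM in monocyte/macrophage cells.

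**Figure D1:**
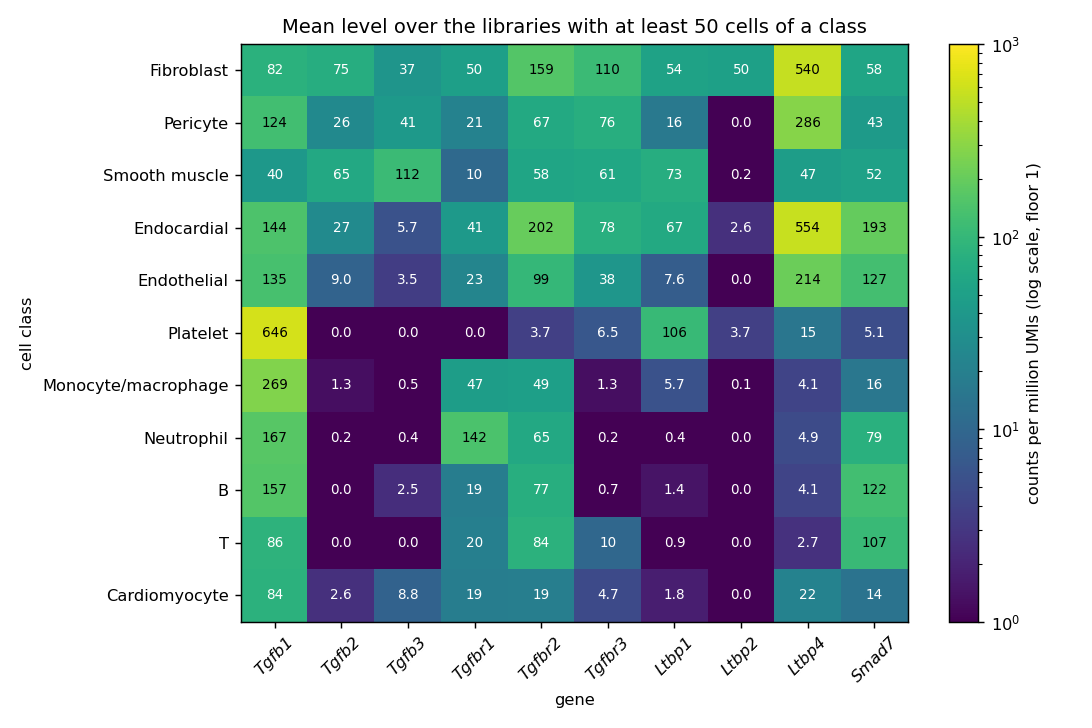
Mean level of each of the 10 genes (columns) in each cell class (rows) with at least 3 libraries of at least 50 cells, in CPM on a log color scale with the mean written in each cell. Tgfb1 is brightest in platelets and monocyte/macrophage cells (269), Tgfbr1 in neutrophils (142), Tgfb3 in smooth muscle (112), and Ltbp2 is bright in fibroblasts only among the classes drawn.

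The comparisons over time set the ligation libraries beside sham and beside each other in each genotype. Over the 4 main classes, 4 of the 29 measured gene and class pairs were at least 2-fold apart between WT 24 h and sham, against 8.26% of all genes and classes measured. From 24 h to 72 h in WT it was 10 of 26 pairs, against 22.3%. In KO, 7 of 29 pairs passed 2-fold from sham to 24 h, against 8.83%, and 9 of 26 from 24 h to 72 h, against 18.7%. Between 72 h and sham it was 13 of 29 pairs in WT and 11 of 29 in KO, against 19.1% in each. The comparisons of a genotype share libraries: the 24 h library stands in 2 of them, and the sham library serves both ligation times. Sham hearts were taken at 24 h only. Ligation and time since the operation therefore cannot be told apart between 72 h and sham.

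Fibroblasts held the most measured members, 10 of 10 in each comparison. At 24 h relative to sham, 0 of the 10 genes were at least 2-fold higher in either genotype (5.04% of all genes measured in fibroblasts were in WT and 4.18% in KO). In WT 0 were at least 2-fold lower (4.55% of all genes were) and in KO 2 were, Tgfb3 and Ltbp4 (9.79% were). From 24 h to 72 h Ltbp2 was at least 2-fold higher in WT (6.52% of all genes were) and 0 genes were in KO (10.3%). Tgfbr2, Tgfbr3 and Ltbp4 were at least 2-fold lower in both genotypes over that step, 3 of 10 genes, against 15.7% of all genes in WT and 8.32% in KO.

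Relative to sham, at 72 h WT fibroblasts had 2 of the 10 genes at least 2-fold higher (6.07% of all genes measured were) and 4 at least 2-fold lower (20.6% were). KO fibroblasts also had 2 higher (8.44% were) and 4 lower (18.1% were). The 2 higher genes were Tgfb1 and Ltbp2 in both genotypes, and the 4 lower ones were Tgfbr2, Tgfbr3, Ltbp1 and Ltbp4 in both. The median log2 ratio of the 10 genes was -0.71 in WT, beside -0.27 for all genes, and -0.92 in KO, beside -0.30. With every cell given the same weight in place of its UMIs, WT had 1 gene higher (Ltbp2) and 2 lower (Tgfbr2 and Tgfbr3), and KO 2 higher and 5 lower. Without doublet removal Tgfb1 missed 2-fold in WT (log2 ratio 0.89 in place of 1.11).

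Fibroblast Tgfb1 was 40.9 CPM in WT sham (162 UMIs), 79.2 in WT 24 h and 88.5 in WT 72 h, and 50.3 in KO sham, 80.2 in KO 24 h and 155 in KO 72 h (466 UMIs). Both sham libraries were the lowest and every ligation library was above them. The ratio of 24 h to sham was 1.93 (1.57 to 2.39) in WT and 1.59 (1.31 to 1.94) in KO, and that of 72 h to sham was 2.16 (1.78 to 2.64) and 3.08 (2.63 to 3.63). Tgfb2 took no common course. It was 95.3, 67.0 and 82.8 CPM in WT sham, 24 h and 72 h, and 86.4, 69.7 and 46.0 CPM in KO. The value at 72 h was thus above that at 24 h in WT and below it in KO. Of the 172 Tgfb2 UMIs in KO 24 h, 45 were in 1 cell. Fibroblast Tgfb3 was lower at 24 h than in sham in both genotypes, at 49.0 and then 27.8 CPM in WT (ratio 0.568, 0.426 to 0.749) and at 52.8 and then 24.3 CPM in KO (ratio 0.461, 0.341 to 0.614). At 72 h it was 37.8 CPM in WT and 27.6 CPM in KO. The KO difference at 24 h missed 2-fold without doublet removal (log2 ratio -0.98 in place of -1.12) and relative to the median gene (-0.91).

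The receptors were lower after ligation. Fibroblast Tgfbr2 was 233 CPM in WT sham (922 UMIs), 207 in WT 24 h (529 UMIs) and 61.6 in WT 72 h (197 UMIs), and 247, 136 and 66.6 CPM in the KO libraries in the same order. Both 72 h libraries lay far below the others, 3.78-fold below sham in WT (ratio 0.264, 0.225 to 0.309) and 3.71-fold in KO (ratio 0.270, 0.231 to 0.314). The genotypes differed at 24 h, where KO was already at a ratio of 0.550 (0.485 to 0.622) to its sham and WT at 0.890 (0.798 to 0.992). From 24 h to 72 h the KO ratio of 0.491 (0.410 to 0.586) was within 2-fold relative to the median gene (log2 ratio -0.85 in place of -1.03) and in cells with at least 3000 UMIs (-0.89). The co-receptor gene Tgfbr3 was 185, 143 and 35.3 CPM in WT and 171, 96.8 and 30.6 CPM in KO. Its level at 72 h was 5.24-fold below sham in WT (ratio 0.191, 0.155 to 0.233) and 5.59-fold in KO (ratio 0.179, 0.143 to 0.222). Tgfbr1 stayed in a narrower range, at 56.1, 53.3 and 34.4 CPM in WT and 66.6, 38.1 and 49.6 CPM in KO, with no comparison over time past 2-fold.

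The latent binders differed in direction. Ltbp4, which tethers latent TGF-beta1 and binds elastic fibers, was 761 CPM in WT sham (3010 UMIs), 644 in WT 24 h and 156 in WT 72 h (500 UMIs), and 1014, 481 and 184 CPM in KO. Its level at 72 h was 4.87-fold below sham in WT (ratio 0.205, 0.187 to 0.226) and 5.52-fold in KO (ratio 0.181, 0.166 to 0.198). As with Tgfbr2, KO at 24 h was lower relative to its sham (ratio 0.475, 0.445 to 0.506) than WT (0.846). With every cell given the same weight, the WT log2 ratio of 72 h to sham was -0.88 in place of -2.28 for Ltbp4 and -1.41 in place of -2.39 for Tgfbr3, and that of KO 24 h to sham was -0.63 in place of -1.08 for Ltbp4. Ltbp1 was 89.2, 55.3 and 32.5 CPM in WT and 69.0, 48.6 and 27.6 CPM in KO. Its ratio of 72 h to sham was 0.364 (0.290 to 0.455) in WT and 0.400 (0.310 to 0.512) in KO. Ltbp2 had the opposite order, at 25.02, 36.8 and 100 CPM in WT (99, 94 and 320 UMIs) and 26.7, 41.3 and 71.6 CPM in KO (120, 102 and 215 UMIs). Its ratio of 72 h to sham was 4.00 (3.18 to 5.06) in WT and 2.68 (2.13 to 3.38) in KO. Smad7, a gene that TGF-beta signaling is known to induce and whose protein blocks the type I receptor, was 71.5, 79.2 and 43.4 CPM in WT and 56.8, 57.1 and 38.6 CPM in KO, and passed 2-fold in neither genotype.

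**Figure D2:**
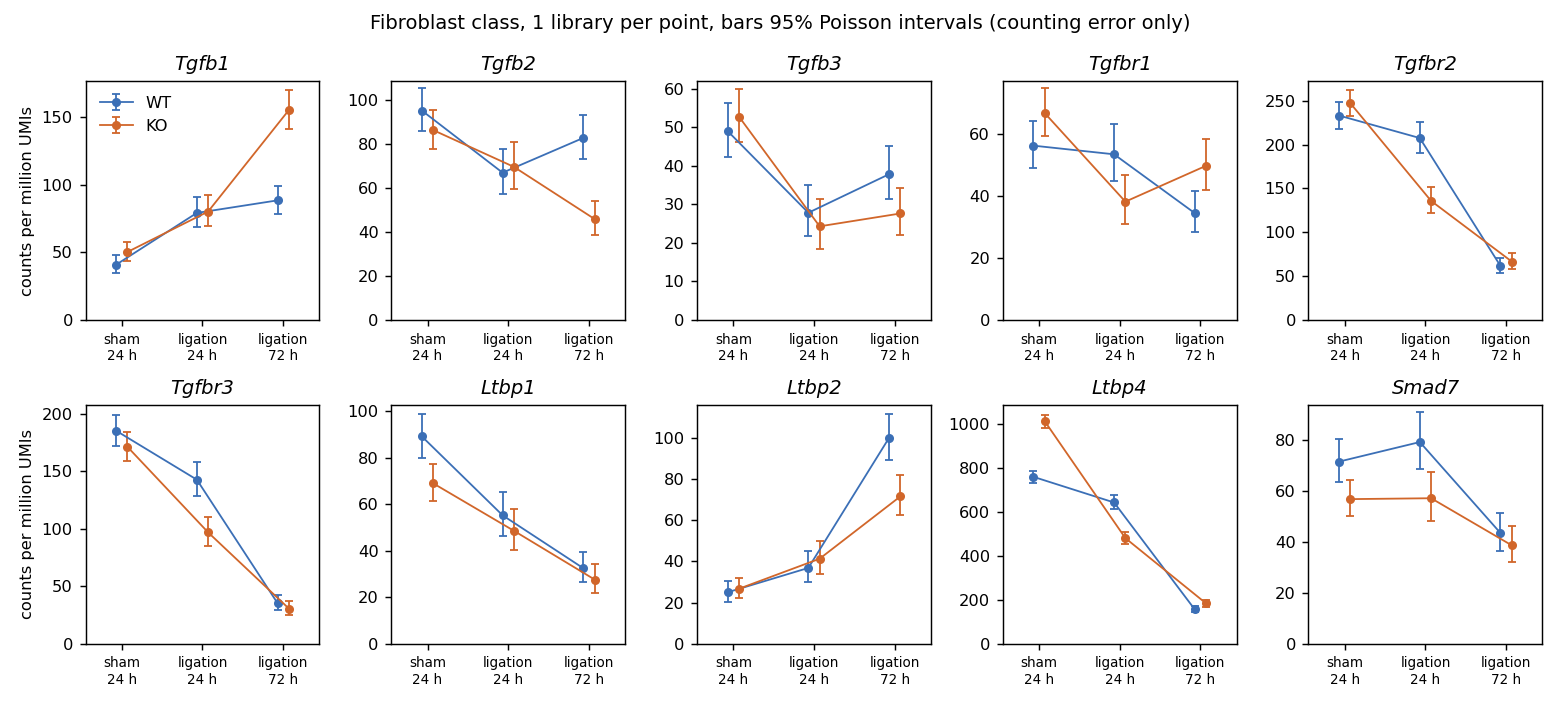
Level of each gene in the fibroblast class (CPM, y axes from 0) in sham 24 h, ligation 24 h and ligation 72 h libraries of WT (blue) and KO (orange), with 1 library per point and 95% Poisson intervals as bars. Tgfbr2, Tgfbr3, Ltbp1 and Ltbp4 are lowest at 72 h, where Ltbp2 is highest, and Tgfb1 is highest in the KO 72 h library (155).

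The makeup of the fibroblast class differed between conditions. A cluster led by Clec3b, Dpep1 and Tnxb held 79.9%, 55.1% and 25.2% of WT fibroblasts in sham, 24 h and 72 h, and 66.4%, 51.3% and 2.22% of KO fibroblasts. The last share is 28 of 1260 cells, in the library that stood apart in depth. The Cxcl5, Cxcl1 and Ptx3 cluster held 28.8% of WT and 39.7% of KO fibroblasts at 24 h. A cluster led by Cthrc1, Col1a1 and Col1a2, genes of matrix-producing fibroblasts, had 1 to 4 cells in each sham and 24 h library. At 72 h it held 95 of the 147 WT fibroblasts and 844 of the 1260 KO fibroblasts (67.0%), so the shares were similar.

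Within the Clec3b cluster the lower levels of the receptors and of Ltbp4 were mostly not seen. Ltbp4 there was 917, 1062 and 1033 CPM in WT sham, 24 h and 72 h, and 1205, 1065 and 1118 CPM in KO. Tgfbr3 was 238, 230 and 188 CPM in WT and 227, 200 and 206 CPM in KO, and Tgfbr2 was 278, 378 and 212 CPM in WT and 303, 279 and 273 CPM in KO. The 72 h libraries had only 37 WT and 28 KO cells in that cluster. In the Cthrc1 cluster at 72 h, by contrast, Ltbp4 was 48.7 CPM in WT and 91.4 in KO, Tgfbr3 was 19.6 and 15.6 CPM, and Tgfbr2 was 44.7 and 44.6 CPM. The Cxcl5 cluster at 24 h was low as well, with Ltbp4 at 166 CPM in WT and 128 in KO and Tgfbr2 at 32.6 and 40.9 CPM. The clusters with low levels of these genes were the ones that held more of the cells after ligation.

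Ltbp2 had the reverse pattern over the clusters. It was 3.63 CPM in WT sham and 6.53 CPM in KO sham in the Clec3b cluster, 60.8 and 65.2 CPM in the Cxcl5 cluster at 24 h, and 109 and 114 CPM in the Cthrc1 cluster at 72 h, where the counting intervals of the genotypes overlapped. Tgfb1 in the Cthrc1 cluster was 92.6 CPM in WT and 138 CPM in KO, above its 39.2 and 47.9 CPM in the sham Clec3b cells. In that Clec3b cluster Tgfb1 was higher at 24 h than in sham in WT, at 77.4 CPM (log2 ratio 0.98), but not in KO, at 41.8 CPM (log2 ratio -0.20). A small cluster led by Dkk3, Wif1 and Ccl19 had the highest Tgfb3 among fibroblast clusters in sham, at 84.8 CPM in WT and 87.3 CPM in KO.

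**Figure D3:**
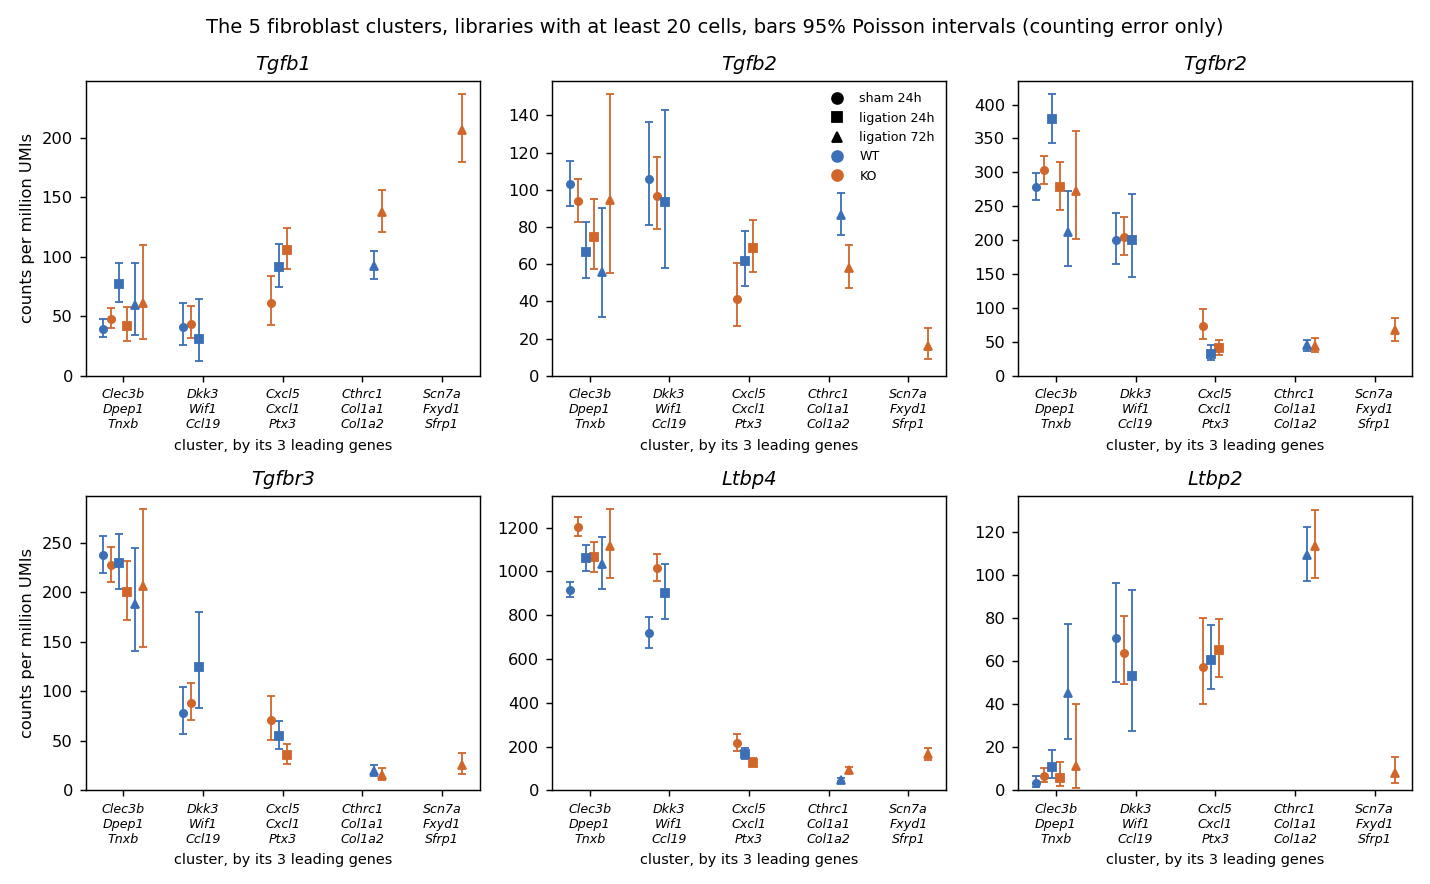
Levels of Tgfb1, Tgfb2, Tgfbr2, Tgfbr3, Ltbp4 and Ltbp2 (CPM, y axes from 0) in the 5 fibroblast clusters, each named by its 3 leading genes, for every library with at least 20 cells of the cluster. Shapes mark the condition, colors the genotype and bars 95% Poisson intervals. Ltbp4 is between 917 and 1205 in the Clec3b cluster and at 48.7 and 91.4 in the Cthrc1 cluster, while Ltbp2 is highest in the Cthrc1 cluster (109 and 114).

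The KO 72 h fibroblasts were shallow and carried RNA of other classes. Their median was 1084 UMIs per cell, against 8784 to 10760 in the other libraries, and the 12 monocyte/macrophage markers summed to 7849 CPM in them, against 59.1 to 365 CPM in the other 5 libraries. All 12 markers had UMIs in that library. The fibroblasts' own 9 markers summed to 13349 CPM there and to 20048 to 38637 CPM elsewhere, with none at 0. A cluster led by Scn7a, Fxyd1 and Sfrp1, with 381 cells in KO 72 h and 2 to 12 in each other library, scored nearly as high for monocyte/macrophage as for fibroblast markers. Without that cluster, KO 72 h fibroblasts had 130 CPM of Tgfb1 in place of 155, 61.0 CPM of Tgfb2 in place of 46.0 and 104 CPM of Ltbp2 in place of 71.6. Their summed monocyte/macrophage markers were then 3469 CPM. Tgfbr2 (66.5 CPM), Tgfbr3 (33.0 CPM) and Ltbp4 (193 CPM) were close to their values with it. Restricted to the 201 cells with at least 3000 UMIs, the library had 142 CPM of Tgfb1, 62.6 CPM of Ltbp2 and 178 CPM of Ltbp4. The part of the macrophage RNA in the KO 72 h values was not tested.

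Genes known to be induced by TGF-beta in mesenchymal cells were followed in fibroblasts as a list of 18. At 24 h they split: 5 were at least 2-fold higher than sham and 6 lower in WT, and 4 higher and 5 lower in KO, with the background shares given above. Among the higher ones, Tnc, which encodes the matrix protein tenascin C, had log2 ratios of 2.19 in WT and 2.83 in KO. Of the lower ones, Tagln had a log2 ratio of -2.82 in WT, and Comp one of -2.53 in KO. From 24 h to 72 h, 12 of the 16 measured genes were higher and 1 lower in WT (median log2 ratio 1.62, all genes -0.26), and 8 of 17 were higher and 0 lower in KO (median 0.91, all genes -0.18). The contractile gene Acta2 led in both, at 12.5 and then 2540 CPM in WT, and 76.2 and then 1002 CPM in KO. Postn, which encodes the matrix protein periostin, was 117 and then 869 CPM in WT and 117 and then 488 CPM in KO. The 6 smooth muscle markers, 2 of which (Acta2 and Tagln) are in the list, summed to 31 to 226 CPM in sham and 24 h fibroblasts, while the 72 h sums were 3853 CPM (WT) and 1456 CPM (KO). Their part in the list was not tested.

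At 72 h the list was lower in KO than in WT, with 8 of 17 genes at least 2-fold lower and 2 higher (median log2 ratio -0.98, all genes -0.08; 3.41% of all genes were lower and 9.04% higher). The lowest were Cthrc1 (log2 ratio -1.53) and Tagln (-1.48), and the 2 higher ones were Tgfbi (2.91) and Comp (1.53). Tgfbi is also a macrophage gene, and the macrophage markers given above were high in the same library, and their part in it was not tested. The KO 72 h fibroblasts were also shallow, with a median of 1084 UMIs against 10239 in WT 72 h. Their sums of fibroblast and of smooth muscle markers, given above, were below those of WT 72 h. The part of these differences in the lower genes of the list was not tested.

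The carriers and activators of latent TGF-beta were followed in fibroblasts as a list of 18. In WT fibroblasts at 24 h, 3 of 16 measured genes were at least 2-fold higher than sham (5.04% of all genes were) and 0 lower (4.55% were), with a median log2 ratio of 0.09 beside -0.06 for all genes. Thbs1, which encodes the latent TGF-beta activator thrombospondin 1, was 50.8 CPM in WT sham and 480 CPM at 24 h (log2 ratio 3.24), but 162 and 267 CPM in KO. Fn1, the fibronectin gene, was 122 CPM in WT and 65.6 CPM in KO at 24 h, and 1491 and 1222 CPM at 72 h. The proteoglycan gene Dcn had log2 ratios of 72 h to 24 h of -1.68 in WT and -1.24 in KO. Mmp9 and Nrros, mainly leukocyte genes, were highest in the KO 72 h fibroblasts with the macrophage markers, at 82.2 and 74.6 CPM. Among 17 transducers, co-receptors and inhibitors, 0 were at least 2-fold higher and 7 of 16 measured lower at 72 h than in sham in WT (median log2 ratio -0.80, all genes -0.27), where 20.6% of all genes were lower. In KO 1 was higher and 9 of 17 lower (median -1.14, all genes -0.30), where 18.1% of all genes were lower. The common mediator Smad4 had log2 ratios of -1.52 and -1.28, and the pseudoreceptor gene Bambi of -1.50 and -1.79. The 1 higher gene was Tgif1, which encodes a transcriptional repressor, at a log2 ratio of 1.08 in KO and 0.43 in WT.

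In monocyte/macrophage cells the ligand gene was higher and the type II receptor gene lower at 24 h. Tgfb1 was 237 CPM in WT sham (2617 UMIs), 349 in WT 24 h and 238 in WT 72 h, and 230, 301 and 256 CPM in KO, so that the 24 h library was the highest in each genotype. The ratio of 24 h to sham was 1.47 (1.40 to 1.55) in WT and 1.31 (1.24 to 1.38) in KO. Tgfbr2 was 60.0, 28.6 and 61.1 CPM in WT and 57.2, 25.7 and 61.1 CPM in KO. Its low at 24 h had a ratio of 0.477 (0.411 to 0.553) to sham in WT and 0.449 (0.395 to 0.510) in KO, and its level at 72 h was near that of sham. Relative to the median gene the log2 ratios of 24 h to sham were -0.95 in place of -1.07 in WT and -0.87 in place of -1.16 in KO. Tgfbr1 was 42.7, 32.9 and 62.3 CPM in WT and 40.7, 30.2 and 72.5 CPM in KO, with ratios of 72 h to 24 h of 1.89 (1.67 to 2.15) and 2.399 (2.15 to 2.68).

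These levels differed between the clusters of the class. Tgfbr2 was highest in a cluster led by Mgl2, Lyve1 and Cbr2, genes of resident macrophages, at 220, 117 and 128 CPM in WT and 176, 109 and 132 CPM in KO. That cluster had 203 cells in WT sham and 38 at 24 h, and 199 and then 55 in KO. Another, led by Ccl24, Arg1 and Ccl6, with 371 WT and 730 KO cells at 24 h, had 20.6 and 18.6 CPM at that time. The Fcrls, Ms4a7 and Syngr1 cluster, with 689 WT and 506 KO cells at 72 h, had 68.6 and 75.9 CPM at that time. Within the Mgl2 cluster Tgfbr2 was lower at 24 h as well. Tgfb1 was highest in a cluster led by Gm9733, Plac8 and Ifitm6, at 311, 468 and 390 CPM in WT and 366, 439 and 398 CPM in KO.

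The latent binders of this class came from a small share of its cells. Ltbp1 was 8.69, 7.16 and 0.84 CPM in WT and 11.9, 4.78 and 1.14 CPM in KO. Of its 96 UMIs in WT sham, 92 lay in the 80 cells of a cluster led by Serpinb2, Saa3 and Alox15, as did 101 of the 102 UMIs in KO sham, 61 of 62 in WT 24 h and 88 of 89 in KO 24 h. The level in that cluster was 162, 252 and 21.3 CPM in WT and 283, 213 and 7.73 CPM in KO, with 143 and 152 cells at 72 h. At the finer Leiden resolution of 2 a cluster led by Serpinb2, Alox15 and Saa3 had only 21, 14 and 9 cells in WT and 21, 18 and 4 cells in KO, so most of those 72 h cells lay elsewhere. Cells of the class with an Ltbp1 UMI numbered 20, 13 and 12 in WT and 21, 14 and 12 in KO. Ltbp4 was 3.31 CPM in WT 72 h (95 UMIs in 22 cells) and 11.8 CPM in KO 72 h (124 UMIs in 84 cells). Of the 95 WT UMIs, 91 were in a cluster of cycling cells led by Hist1h2ap and Birc5, with 20 of the UMIs in 1 cell. That cluster had 184 WT and 233 KO cells at 72 h. It scored 4.44 for monocyte/macrophage markers and 2.19 for endothelial markers, its second class. Endothelial cells had 192 CPM of Ltbp4 in WT 72 h and 181 CPM in KO 72 h. A part of cycling endothelial cells in the Ltbp4 values of this class was not tested. The KO 72 h cells of the class had a median of 1334 UMIs, and 53.4% had fewer than 1500. A part of RNA from other classes in the KO value was not tested. Neutrophils had 0 Ltbp4 UMIs in WT 72 h, which allows up to 1.46 CPM, and 3.31 CPM in KO 72 h (3 UMIs), below the monocyte/macrophage level of the same library in both. In sham the order was the reverse, with 7.97 CPM in WT and 15.6 CPM in KO neutrophils against 2.99 and 5.35 CPM in monocyte/macrophage cells.

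In neutrophils Tgfbr1 was the most variable of the measured genes. It was 136 CPM in WT sham (291 UMIs), 92.1 in WT 24 h (384 UMIs) and 203 in WT 72 h (417 UMIs), and 152, 82.8 and 183 CPM in KO. Both 24 h libraries were the lowest and both 72 h libraries the highest. The ratio of 72 h to 24 h was 2.21 (1.91 to 2.54) in WT and 2.21 (1.86 to 2.62) in KO. The median gene of neutrophils also had a log2 ratio of 0.54 in WT and 0.51 in KO, so relative to it the log2 ratios of Tgfbr1 were 0.60 and 0.64. A neutrophil cluster led by Tnf, Ccrl2 and Gadd45b had 171 to 227 CPM of Tgfbr1 in the 6 libraries, and held 108 WT cells at 24 h and 507 at 72 h, and 268 and 310 in KO. Cells of a cluster led by Cstdc4, Cd177 and Retnlg, with 652 WT and 1318 KO cells at 24 h, had 76.0 and 68.2 CPM at that time. Tgfb1 in neutrophils was 133, 249 and 154 CPM in WT and 161, 169 and 136 CPM in KO. The ratio of 24 h to sham was 1.88 (1.64 to 2.15) in WT and 1.05 (0.914 to 1.20) in KO.

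In endothelial cells the genes that stood out were lower after ligation. At 72 h relative to sham, 5 of the 8 measured genes were at least 2-fold lower in WT (13.0% of all genes were) and 3 of 9 in KO (12.4%), and 0 were higher in either (6.16% and 7.90%). The lower genes were Tgfb2, Tgfbr1, Tgfbr3, Ltbp1 and Smad7 in WT, and Tgfb3, Tgfbr3 and Smad7 in KO. The KO ratio of Tgfb3 was 0.239 (0.00594 to 1.40), from 1 UMI at 72 h and 49 in sham, and its interval includes no change. With equal weight for every cell 2 genes were lower in WT, Tgfb2 and Tgfbr3, and Tgfb3 in KO was not measured once its top barcode was left out. Smad7 was 177 CPM in WT sham (1431 UMIs), 154 in WT 24 h and 77.7 in WT 72 h (107 UMIs), and 161, 130 and 59.9 CPM in KO. Its ratio of 72 h to sham was 0.438 (0.356 to 0.533) in WT and 0.371 (0.282 to 0.480) in KO, and with every cell given the same weight the WT log2 ratio was -0.77 in place of -1.19. Tgfbr3 was 62.9, 43.6 and 22.5 CPM in WT and 52.7, 26.9 and 19.96 CPM in KO, with ratios of 0.358 (0.241 to 0.515) and 0.378 (0.230 to 0.590) for 72 h to sham.

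Tgfb2 and Ltbp1 were lower in endothelial cells at 24 h than in sham in both genotypes, while at 72 h the WT levels were below sham and the KO levels near it. Tgfb2 was 20.5 CPM in WT sham (165 UMIs), 5.54 in WT 24 h (16 UMIs) and 5.08 in WT 72 h (7 UMIs), and 8.42, 2.83 and 12.0 CPM in KO (99, 6 and 12 UMIs). Its ratio of 24 h to sham was 0.271 (0.151 to 0.453) in WT and 0.336 (0.120 to 0.757) in KO. Ltbp1 was 14.9 CPM in WT sham and 3.12 CPM in WT 24 h (9 UMIs), and 12.1 and 1.89 CPM in KO (142 and 4 UMIs), with ratios of 0.209 (0.0935 to 0.411) and 0.156 (0.0420 to 0.408). At 72 h the 5 Ltbp1 UMIs of WT gave 3.63 CPM and the 10 of KO gave 9.98 CPM (4.79 to 18.4), an interval that holds the KO sham level. The KO 72 h endothelial cells were shallow, with a median of 1155.5 UMIs, and 64.2% had fewer than 1500. In cells with at least 3000 UMIs, 0 genes were measured between KO 72 h and sham in this class. A part of RNA from other classes in the KO 72 h values of Tgfb2 and Ltbp1 was not tested. Ltbp4 was 287, 153 and 192 CPM in WT and 264, 205 and 181 CPM in KO.

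An endothelial cluster led by Rbp7, Stmn2 and Sema3g, genes of arterial endothelium, held 145 of the 165 Tgfb2 UMIs of WT sham. Within it Tgfb2 was 69.7 CPM in WT sham and 21.5 CPM at 24 h, and 37.9 and 14.0 CPM in KO, so the lower level at 24 h was also seen inside the cluster. Smad7 was highest in the same cluster, at 306, 266 and 325 CPM in WT and 290, 218 and 367 CPM in KO, so its 72 h values there were not below sham. Those 72 h values rest on few cells. At Leiden resolution 2 the cluster led by Stmn2, Rbp7 and Sema3g had 12 WT and 17 KO cells at 72 h, against 308 and 337 in sham. In the largest endothelial cluster, led by Timp4, Aqp1 and Fabp4, Smad7 was 138, 139 and 98.1 CPM in WT and 136, 144 and 101 CPM in KO. In KO 72 h a cluster led by Rflnb, Trim37 and Fabp4 held 413 of the 548 endothelial cells, with 14.1 CPM of Smad7.

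**Figure D4:**
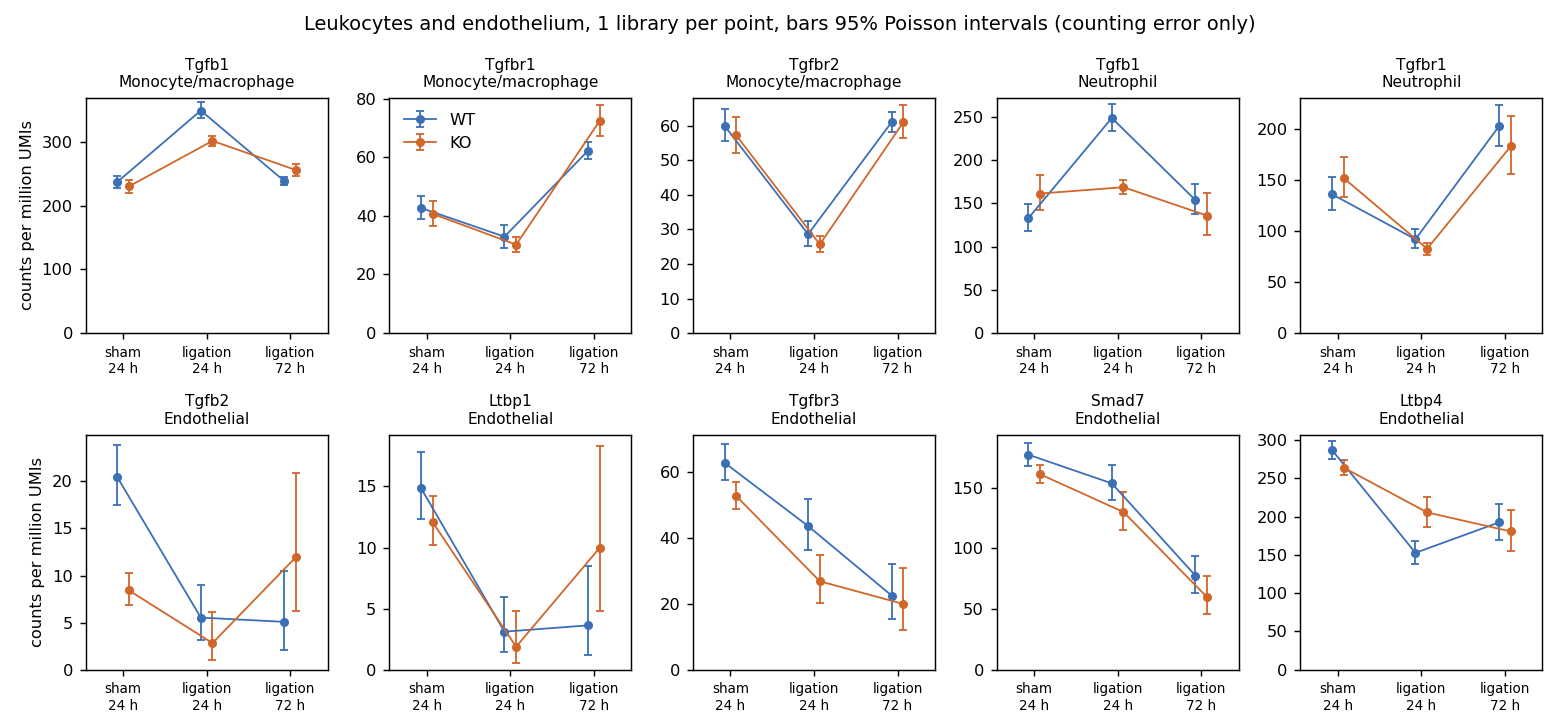
Levels (CPM, y axes from 0) of 5 gene and class pairs in leukocytes (top) and of 5 genes in endothelial cells (bottom) in sham 24 h, ligation 24 h and ligation 72 h libraries of WT (blue) and KO (orange), with 1 library per point and 95% Poisson intervals as bars. Monocyte/macrophage Tgfbr2 has its low at 24 h (28.6 and 25.7), neutrophil Tgfbr1 its high at 72 h (203 and 183), and endothelial Smad7 its low at 72 h (77.7 and 59.9).

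The comparison of the genotypes asks whether loss of Trpm4 alters the system. In sham hearts 2 of 30 measured gene and class pairs were at least 2-fold apart between KO and WT, against 1.60% of all genes and classes. At 24 h 0 of 25 pairs were, against 2.51%, and at 72 h 1 of 24 was, against 6.25%. Genotype and library cannot be told apart in any of these comparisons. In sham the 2 pairs were Tgfb2 in endothelial cells, with a KO over WT ratio of 0.412 (0.318 to 0.531), and Tgfb2 in monocyte/macrophage cells, where 17 of the 42 WT UMIs were in 1 cell. In the arterial-gene cluster that held most endothelial Tgfb2, the log2 ratio was -0.88. At 72 h the 1 pair was Ltbp4 in monocyte/macrophage cells (ratio 3.56, 2.70 to 4.70), at the low level described above and with the shallow KO library. In both genotypes the class includes the cycling cluster described above, and a part of endothelial cells in this ratio was not tested.

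Smaller genotype differences lay outside their counting intervals. Fibroblast Ltbp4 was higher in KO sham (ratio 1.33, 1.27 to 1.40), and fibroblast Tgfbr2 was lower in KO at 24 h (ratio 0.654, 0.569 to 0.752), when more KO than WT fibroblasts lay in the Cxcl5 cluster. Neutrophil Tgfb1 was lower in KO at 24 h (ratio 0.678, 0.627 to 0.734), and in the Cstdc4 cluster too, at 216 CPM against 296 CPM. At 72 h fibroblast Tgfb1 was higher in KO (ratio 1.75, 1.51 to 2.04) and Tgfb2 (ratio 0.555, 0.448 to 0.684) and Ltbp2 (ratio 0.716, 0.599 to 0.853) were lower. Those 3 values rest on the shallow KO library with macrophage RNA, and without its Scn7a cluster the KO levels were nearer to WT for all 3 genes. With every cell given the same weight, 5 of 24 pairs passed 2-fold at 72 h, among them fibroblast Ltbp4 (log2 ratio -1.24 in place of 0.23), Tgfbr3 (-1.05 in place of -0.21) and Tgfb1 (1.35 in place of 0.81). How much mice of 1 genotype differ from each other cannot be read from pooled libraries.

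**Figure D5:**
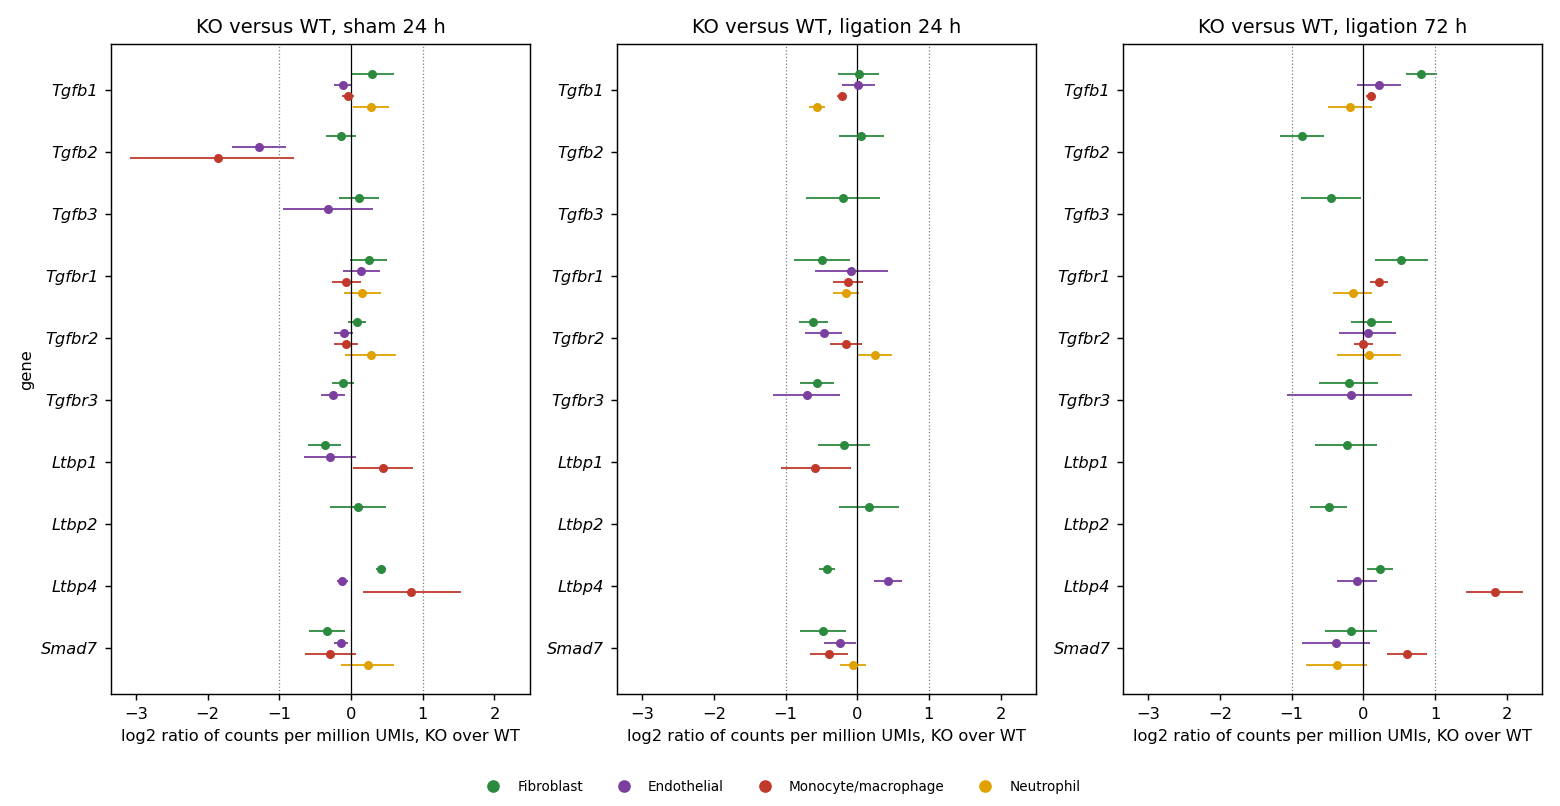
KO over WT log2 ratio of CPM for each gene (rows) in the 4 main classes (colors) at sham 24 h, ligation 24 h and ligation 72 h, with exact 95% intervals as bars and dotted lines at 2-fold. Points are drawn where the pair of libraries held at least 50 UMIs. Most points lie between the dotted lines, and the 3 outside are endothelial and monocyte/macrophage Tgfb2 in sham and monocyte/macrophage Ltbp4 at 72 h.

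The genes with the most similar levels were found for each of the 10 over 54 sums of a class in a library (14 classes, at least 50 cells each), among 12942 genes, by Pearson's r of log2(CPM + 10). Sums of the same library share their depth, so r is a description. Tgfb1 was most like Rap1b (r = 0.89) and Tmsb4x (0.87), Tgfb2 like Smo and Fstl1 (0.91 each), and Tgfb3 like Cacna2d1 and Fat1 (0.95 each). Tgfbr1 was most like Skil (0.86) and Tnfaip2 (0.85), Tgfbr2 like Smarca2 (0.84) and Man1a2 (0.83), and Tgfbr3 like Mpdz (0.95) and Clstn1 (0.93). Ltbp1 was most like Apcdd1 and Pard3b (0.84 each), Ltbp2 like Bcat1 (0.95) and Slc1a3 (0.93), Ltbp4 like Nid1 (0.95) and Ddah2 (0.94), and Smad7 like Clec2d (0.85) and Tut4 (0.81).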

How the data were processed

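The authors deposited 1 table of whole UMI counts per gene and cell for each library, made with Cell Ranger 6.0.0 on mm10 per the submitters' processing notes. The gene annotation, the strand setting and any later filter are not given in the sources used here. Gene positions are from GENCODE M21 (GRCm38), which holds 32158 of the 32285 gene identifiers.

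From the deposited counts, only cells with at least 200 genes and at most 20% mitochondrial UMIs were used. Scrublet's own threshold marked 0 to 50 cells per library, so the highest doublet scores were removed instead, at 0.8% for every 1000 cells of a library. The 6 libraries were clustered together, without correction between them, with scanpy 1.11.5 (2000 variable genes, 30 principal components, 20 neighbours, Leiden resolution 1, leidenalg 0.10.2). Of 39 clusters, 3 stayed unnamed. UMIs were summed per class and library. Ratios have exact conditional intervals, levels exact Poisson intervals, both at 95%. Main classes had at least 100 cells in every library. With 1 library per group no p-value was computed. On counts simulated from WT fibroblasts at 72 h and in sham, 200 of 200 genes shifted 4-fold passed 2-fold. A 4-fold shift lies well past that cut, so the check cannot show how smaller shifts or differences between mice fare. Python 3.11.15, scipy 1.17.1, numpy 2.4.6, pandas 2.3.3, scikit-learn 1.9.0 and matplotlib 3.10.9 were used.

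The 10 genes are reported in every main class where measured. From each of 3 lists at most the 2 highest and the 2 lowest ratios per comparison were to be named. Of the genes this rule selects, 1 is not reported here. Postn, and a value of Smad4, Bambi or Fn1 in the other genotype or time, fall outside that rule and were chosen after their values were seen. The members, lists, markers and comparisons were chosen with earlier results of these data known. Alternatives were Leiden resolutions of 0.5 and 2, no doublet removal, cells with at least 1500 UMIs, means over cells in place of sums, scaling to the median gene, at least 100 UMIs per pair, leaving out the top barcode, and, added after seeing the data, cells with at least 3000 UMIs and leaving out the Scn7a cluster.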

Additional observations from a re-analysis of the deposited data

Results flagged for a closer look

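Tgfb2 in fibroblasts was flagged because its levels from 24 h to 72 h went in opposite directions in the 2 genotypes, beyond counting error in each. The log2 ratio of 72 h to 24 h was 0.31 in WT (67.0 and 82.8 CPM) and -0.60 in KO (69.7 and 46.0 CPM), a difference of -0.91. Of the 172 KO UMIs at 24 h, 45 were in 1 cell, so the KO level at 24 h leans on that cell. The highest count in 1 cell was 24 of 138 in KO 72 h, 20 of 171 in WT 24 h and 28 of 265 in WT 72 h. The counting intervals do not cover such differences between cells. With 1 library per group the difference was not tested. Without the Scn7a cluster the KO level at 72 h was 61.0 CPM, below the 69.7 CPM at 24 h, and in the Cthrc1 cluster at 72 h it was 86.4 CPM in WT and 57.9 CPM in KO.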

How the results depend on the processing

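No paired analysis was possible because each group has 1 library. Counts of gene and class pairs past 2-fold were within 1.5 times of the reported count under the alternatives run, with these exceptions. KO 24 h against sham had 4 pairs in place of 7 relative to the median gene. The genotypes in sham had 1 in place of 2 with at least 100 UMIs per pair, and also 1 without the top barcode. At 24 h they had 1 in place of 0 among cells with at least 3000 UMIs, and at 72 h 2 in place of 1 without doublet removal and 5 with means over cells. WT 72 h against sham had 8 in place of 13 with means over cells. The cells with at least 3000 UMIs, the values without the Scn7a cluster and the alternatives of 72 h against sham were chosen after seeing the data. No called ratio reversed. Among single ratios, means over cells moved 72 beyond the counting interval and kept 175 within it, scaling to the median gene moved 33 and kept 214, Leiden resolution 2 moved 14 and kept 230, leaving out the Scn7a cluster moved 10 and kept 237, and each other alternative moved 0 to 7. The causes were not tested. Class names were rebuilt, so levels in small classes depend on them, and pairs under 50 UMIs were not read.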
